A study of Canis lupus familiaris with 2 samples.

Results

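FOS, JUN, EGR1 and NR4A1 are immediate early transcription factors. RNA was pooled from the left superior fat pads (LSFPs) of dogs given a miR-206 or a control lentivirus. The deposited intensity of each gene was lower on the miR-206 array than on the control array. Bacterial spike-in controls were lower on it too. Relative to their median JUN, EGR1 and NR4A1 were only 1.16-fold, 1.24-fold and 1.37-fold lower, and FOS 2.78-fold. The GAPDH controls were higher on the miR-206 array, and relative to their median the differences widened, from 6.03-fold lower for JUN to 14.5-fold for FOS. No control is known to be constant between the pools. The 4 genes were followed through every probe set, a group of short oligonucleotide probes read together on an Affymetrix array, that the platform annotation assigns to 1 of these symbols. This gave 4 probe sets of 1628 in the table, 1 for each gene, and 4 of its 823 named genes. The genes were chosen with their differences already known, so the values below are a description and carry no test.

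The data came from 2 arrays hybridized with total RNA labelled as LSFPs, fat pads on the left atrium of the dog heart in which a nerve plexus is embedded. The paper describes harvesting tissue from close around the LSFPs, and for its small RNA library it left out fat as far as possible. Whether the tissue of these arrays was taken in this way is not stated, and the share of fat and heart muscle in each pool is not known. The lenti-control array held RNA of mongrel dogs infected with a lentivirus carrying a scramble sequence. The lenti-miR-206 array held RNA of dogs infected with a lentivirus overexpressing miR-206, taken 2 weeks after infection according to its label. Both groups had the chest opened and virus injected directly into the LSFPs, and the labels of neither mention atrial pacing. The label of the lenti-control array gives no time. The paper's methods describe both lentivirus groups as sampled 2 weeks after infection and not paced, with dogs of either sex. Each array was a pool of RNA from 3 dogs, so there is no replicate, the spread between dogs is unknown, and 1 dog may have contributed most of a pooled value. The sources used here do not give the time from tissue removal to RNA extraction. The methods call the dogs of the pacing experiment adult, and for the dogs given lentivirus they state no age. The table has no probe set for miR-206 itself, so the overexpression could not be checked on these arrays.

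Immediate early genes are transcribed within minutes of a stimulus, from factors already present in the cell and without new protein synthesis. Growth factors, neuronal activity, stretch, ischemia and the handling or dissociation of tissue all induce them, mainly through MAP kinases acting on the serum response factor complex and on CREB. Their transcripts are short-lived, so a level reflects the minutes to hours before the RNA was fixed more than a steady state.

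FOS and JUN encode the basic leucine zipper proteins that pair with each other as the transcription factor AP-1. The FOS probe set had a log2 intensity of 9.62 on the lenti-control array and 7.07 on the lenti-miR-206 array. This is a log2 difference, the lenti-miR-206 value minus the lenti-control value, of -2.55, or 5.86-fold lower, which leaves 17.1% of the lenti-control level. FOS had the largest difference of the 4 genes, although without replicates its lead over the others cannot be set against an error. JUN had 9.33 and 8.05. Its log2 difference of -1.28, or 2.44-fold lower, was the smallest of the 4, and 41.0% of the lenti-control level was left. The partners of AP-1 were therefore lower by unequal amounts, with the FOS difference 1.27 below that of JUN on the log2 scale.

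EGR1 is a zinc finger factor induced through the serum response factor. Its probe set had a log2 intensity of 6.81 for the control virus and 5.43 for the miR-206 virus, which is a log2 difference of -1.38 and 2.61-fold lower. Both values lay below the median of all log2 values in the table, 7.21, and no detection call shows that the lower one was above background. NR4A1, an orphan nuclear receptor also known as NUR77, had 7.55 and 6.02. This is a log2 difference of -1.53, or 2.89-fold lower. The lenti-miR-206 values of NR4A1 and FOS also lay below 7.21, and no detection call shows them to be above background. EGR1, NR4A1 and JUN lay close together, within 0.25 of each other on the log2 scale, while FOS minus NR4A1 was -1.02. These gaps between genes are the same under any reference, because a shift of a whole array moves all 4 alike. In bulk tissue, fewer cells that express a gene and less of its RNA per cell cannot be told apart.

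**Figure D1:**
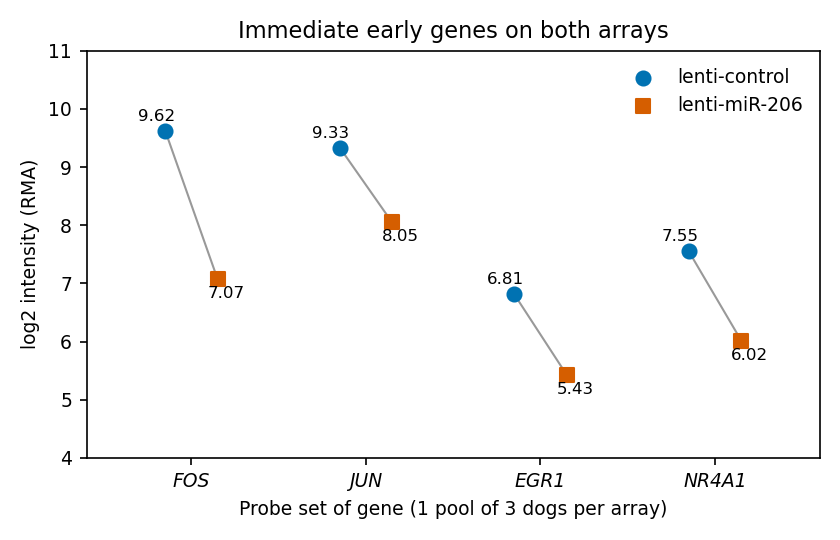
RMA log2 intensity (y axis) of the probe set of each gene (x axis) on the lenti-control array (blue circles) and the lenti-miR-206 array (orange squares), with 1 pool of 3 dogs per array and no error bars because there are no replicates. Each line slopes down from the lenti-control to the lenti-miR-206 value, steepest for FOS (9.62 to 7.07); heights are not to be compared between genes.

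Each gene had only 1 probe set in the table, so the agreement of probe sets within a gene could not be examined. No further probe set carried any of the 4 symbols, their RefSeq synonyms or a shared annotation that included them. The 441 probe sets without a symbol, controls included, and probe sets with smaller differences are not covered by this search. The probe sets of JUN, EGR1 and NR4A1 have the suffix s_at, which marks probes that can hybridize to more than 1 transcript, and the probe set of FOS does not.

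All 4 probe sets were lower, where 24.9% of the 1628 probe sets were lower (405) and the others higher. The table holds only probe sets that differ by at least 2-fold between the arrays, and nothing is read from the count because the genes were chosen on this contrast. FOS was among the lowest, with 27 of the 1628 probe sets and 13 of the 823 genes lower by more. Of the other 3, EGR1 and JUN were near the middle of the lower genes, and NR4A1 lay further down. NR4A1, EGR1 and JUN had 68, 91 and 113 genes lower by more, against 212 lower genes in all with a median log2 difference of -1.31. The median of the 4 genes was -1.46, or 2.75-fold lower, and that of all 823 genes was 1.17. At a threshold of 3-fold, FOS alone remained of the 4, where 8.60% of the probe sets were at least 3-fold lower.

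**Figure D2:**
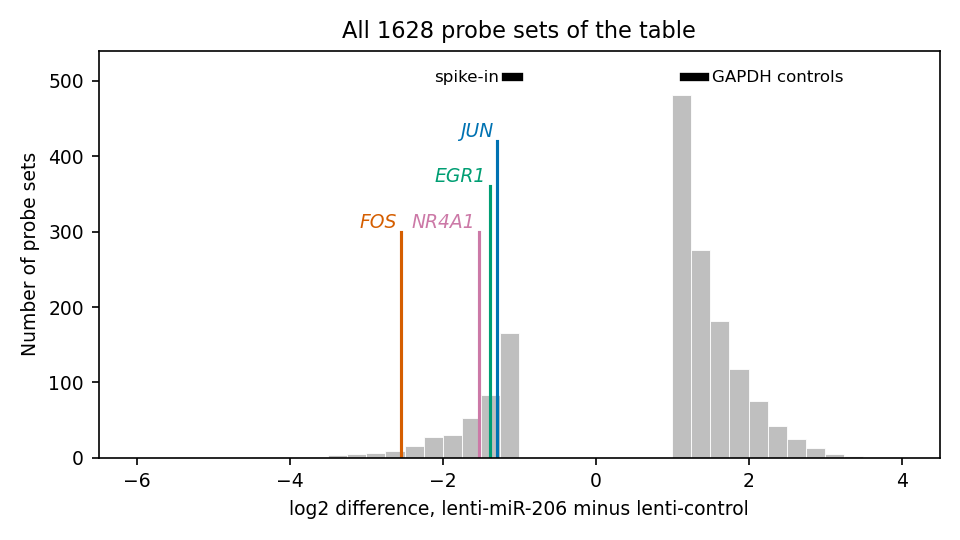
Number of probe sets (y axis) by log2 difference, lenti-miR-206 array minus lenti-control array (x axis) for all 1628 probe sets, with coloured lines at the 4 immediate early genes and black bars spanning the spike-in and the GAPDH control probe sets; line heights carry no meaning. FOS lies in the lower tail at -2.55, JUN, EGR1 and NR4A1 lie between -1.53 and -1.28, and no probe set lies in the gap around 0 that is narrower than 2-fold.

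The size of these differences depended on which controls served as the reference. The direction stayed the same, but the GAPDH and actin controls, being higher on the lenti-miR-206 array, could not reverse a lower value. The spike-in controls could reverse only differences smaller than their own. The 13 bacterial spike-in control probe sets in the table had log2 differences with a median of -1.08 and a lowest value of -1.17, so they were lower on the lenti-miR-206 array too. The log2 difference of JUN minus that of the lowest of them was -0.12. Relative to the spike-in median, the log2 difference of FOS was -1.47, or 2.78-fold lower. That of NR4A1 was -0.46, that of EGR1 -0.31 and that of JUN -0.21, which is 1.37-fold, 1.24-fold and 1.16-fold lower. FOS was thus the only one of the 4 still lower by 2-fold with this reference, by which 3.69% of all probe sets were, and 21.6% were lower by any amount.

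The 5 GAPDH control probe sets were higher on the lenti-miR-206 array, by log2 differences of 1.16 to 1.43. Relative to their median of 1.31, the differences widened to -3.86 for FOS, -2.84 for NR4A1, -2.69 for EGR1 and -2.59 for JUN, or 14.5-fold, 7.15-fold, 6.45-fold and 6.03-fold lower. With this reference 58.7% of all probe sets were lower. The actin control probe set had a log2 difference of 1.41, close to GAPDH, and gave -3.96 for FOS and -2.69 for JUN. The GAPDH and spike-in medians lie 2.38 apart on the log2 scale, more than the 1.27 between FOS and JUN. No control is known to be constant between these pools, and those in the table are the ones that passed the same 2-fold selection. Along the GAPDH transcript the log2 difference was 1.16 for the 3′, 1.31 for the middle and 1.43 for the 5′ probe set, a measure in which arrays can differ with RNA integrity. Its part in the differences of the immediate early genes was not tested.

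**Figure D3:**
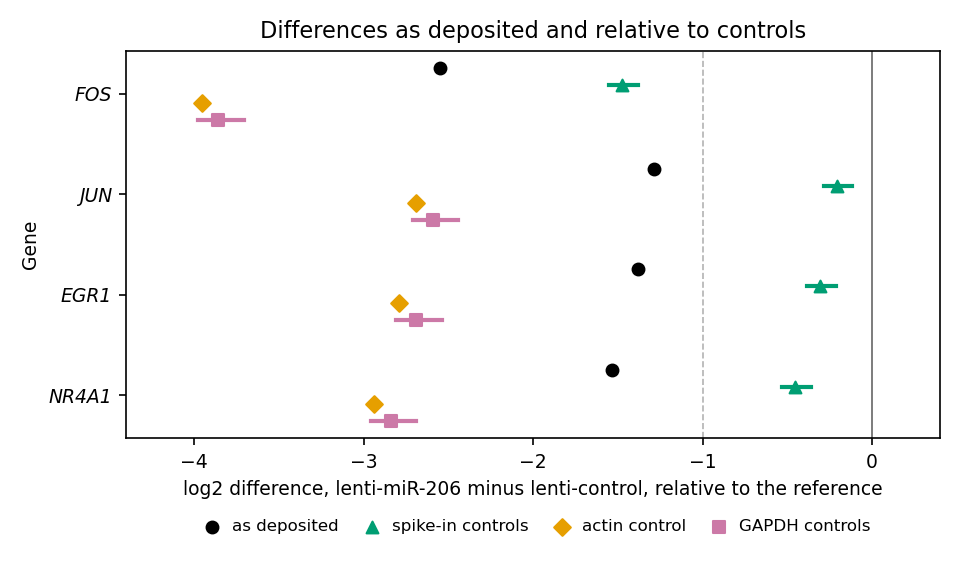
Log2 difference of each gene (y axis) as deposited (black circles) and relative to the spike-in median (green triangles), the actin control (orange diamonds) and the GAPDH median (pink squares), on the x axis; bars span the lowest and the highest control of that kind, and the dashed line marks 2-fold lower. Every point lies below 0, and relative to the spike-in controls FOS at -1.47 is the one gene beyond the dashed line.

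Other immediate early genes were looked up in the table. The share of all genes on the array that entered the table is not known here, so nothing is read from how many genes of a list were in it. Of 24 other immediate early transcription factors, FOSB, FOSL2, JUNB, EGR2, NR4A2, ATF3 and MYC among them, 0 were in the table. Of 39 immediate early genes that are not transcription factors 4 were, with 3 lower and 1 higher, where 25.8% of the named genes were lower and 74.2% higher. Genes outside the table are not analysed here, and absence can mean a difference under 2-fold, a probe set without a symbol or no probe set at all.

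The 3 lower genes each encode a secreted protein. THBS1, thrombospondin 1 of the extracellular matrix, had log2 intensities of 10.00 and 7.99 with its brighter probe set, a log2 difference of -2.01. Its other probe set had -1.12, so 2 probe sets of 1 gene differed by almost as much as FOS and NR4A1 did. CCN1, a matrix protein also known as CYR61, had 9.50 and 8.27, a log2 difference of -1.23. CCL2, the chemokine that attracts monocytes, had 8.06 and 6.80, a log2 difference of -1.27. The gene that was higher was PPP1R15A, also called GADD34, which directs dephosphorylation of eIF2α after stress. It had 7.56 and 8.69, a log2 difference of 1.12 that becomes -0.19 relative to the GAPDH controls. CCN1 and CCL2, at -0.16 and -0.19 relative to the spike-in controls, were close to them in the way JUN was.

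Upstream of these genes, 1 of 31 listed kinases, cofactors and transcription factors was in the table. It was CAMK2D, the calcium/calmodulin kinase of heart muscle, with 4.44 and 6.15, a log2 difference of 1.70. Its lenti-control value lay below the median of the table, 7.21, and is not shown to be above background. Of 16 partners of AP-1 and cofactors of EGR and NR4A proteins, 0 were in the table.

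Markers of several cell types differed between the same arrays, in a table where 25.8% of the named genes were lower and 74.2% higher. Of 14 adipocyte markers 8 were in the table and all 8 were lower, with log2 differences between -2.87 and -1.12 and a median of -1.76. Their summed intensity, as a log2 value, was 15.44 on the lenti-control and 13.63 on the lenti-miR-206 array. The differences of all 4 immediate early genes lay inside this adipocyte range, with 2 adipocyte markers lower by more than FOS and 7 by more than JUN. The range begins close to the 2-fold limit of the table, and only 13 of the 823 genes were lower by more than FOS. Lying inside it therefore does not set the 4 genes apart from other lower genes. The fibroblast markers COL1A1, COL1A2 and COL3A1 (3 of 6) had -1.31, -1.35 and -1.11, close to JUN and EGR1, and their summed log2 intensity was 13.80 and 12.60. Of 9 neuron markers 2 were in the table, STMN2 with -2.56 and SNAP25 with -3.52, and of 5 glia markers 2, S100B with -2.96 and PMP22 with -1.19. The other probe set of STMN2 had -3.29 and that of S100B -1.19, so the probe sets of each gene disagreed in size. Of 18 cardiomyocyte markers 14 were in the table and all 14 were higher, with log2 differences between 1.17 and 2.83 and a summed log2 intensity of 15.29 on the lenti-control and 16.75 on the lenti-miR-206 array. Of 6 smooth muscle markers 4 were in the table, with log2 differences between 1.46 and 1.88. The endothelial marker MMRN1 (1 of 5) had -1.15 and the macrophage marker LYZ (1 of 6) had 1.13, while 0 of 4 lymphocyte and 0 of 3 erythrocyte markers were in the table. The part of these cell types in the lower immediate early transcripts was not tested. The adipocyte markers had log2 intensities between 7.10 and 14.20 (median 11.42) on the lenti-control array and between 5.53 and 12.80 (median 9.29) on the lenti-miR-206 array. The cardiomyocyte markers had 6.28 to 13.09 (median 11.18) and 9.11 to 14.27 (median 12.76). The autonomic nerve markers TH, CHAT and DBH were outside the table, and their levels are not analysed here.

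**Figure D4:**
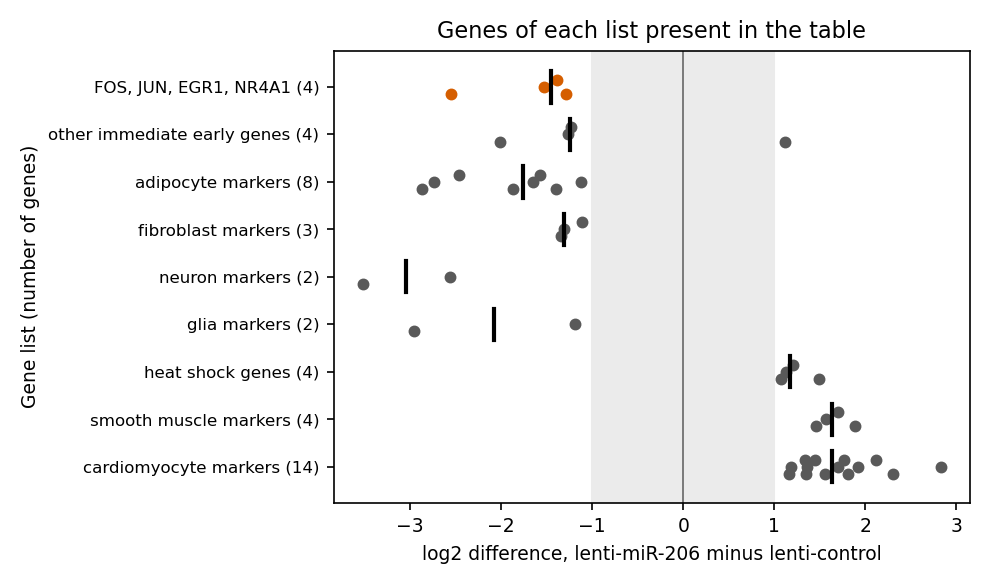
Log2 difference, lenti-miR-206 array minus lenti-control array (x axis), of listed genes found in the table (y axis, number of genes in brackets); each point is a gene at its probe set with the highest mean, vertical bars are medians, and the grey band marks differences under 2-fold, which the table leaves out. The 4 immediate early genes (orange) lie from -2.55 to -1.28, within the span of the adipocyte markers (-2.87 to -1.12), while the cardiomyocyte markers lie from 1.17 to 2.83. The adipocyte span begins close to the 2-fold limit, so lower genes of any kind can fall within it.

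The genes with the log2 difference nearest to each of the 4 were found over the 2 arrays, a likeness that rests on a single difference. STMN2, a neuronal phosphoprotein, and MTARC1 were nearest to FOS with -2.56 and -2.51. The other probe set of STMN2 had -3.29, further from FOS. EMC3 and ANGPTL1 were nearest to JUN, with -1.29 and -1.30. LAMB1, a laminin chain, and SLC27A6, a fatty acid transport protein, were nearest to EGR1 with -1.39 and -1.38. LRIG3 and ANXA1, an annexin, were nearest to NR4A1 with -1.52 and -1.51.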

How the data were processed

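Pooled RNA (3 dogs per group) was hybridized to 1 Affymetrix canine array per group. The deposited values are log2 intensities from RMA, the method named by the submitters' processing notes. RMA corrects background, normalizes arrays to each other and summarizes each probe set. The sources used here do not give its version or which arrays were normalized jointly. Listed are 1628 probe sets and 19 controls, none with a difference under 2-fold. No detection calls were used, and the 2 arrays limit the precision.

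Log2 differences were computed in pandas 2.3.3 and numpy 2.4.6 (Python 3.11.15), with plots from matplotlib 3.10.9. The computation was tested on simulated data. Of the probe sets, 1184 had 1 gene symbol, 22 several and 441 none, controls included. Symbols were updated by Entrez identifier for 1104 through RefSeq (UU_Cfam_GSD_1.0), and 80 kept the platform symbol. A gene was represented by its probe set with the highest mean. Named were the 4 genes, every gene of the fixed lists that was in the table, cell type markers, and the 2 genes nearest to each in log2 difference. The genes and lists were chosen with earlier results of these data known. With 1 array per group no test was made. Alternatives were control references, a 3-fold threshold, the mean of the probe sets of a gene, and leaving out s_at and x_at probe sets or dim ones (higher value under 7.21).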

Additional observations from a re-analysis of the deposited data

How the results depend on the processing

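The actin reference was chosen after seeing the data. Each of the 4 genes was lower under every reference, an outcome that the GAPDH and actin controls, being higher, could not have reversed. Over the lowest and the highest spike-in control the log2 differences were -1.38 and -1.55 for FOS, -0.12 and -0.28 for JUN, -0.21 and -0.38 for EGR1, -0.36 and -0.53 for NR4A1, and -0.29 and -0.46 for their median. Over the lowest and the highest GAPDH control they were -3.71 and -3.98 for FOS, -2.44 and -2.71 for JUN, -2.54 and -2.81 for EGR1, -2.69 and -2.96 for NR4A1, and -2.61 and -2.88 for the median. Relative to the spike-in median they were -1.47, -0.21, -0.31 and -0.46 in the same order and -0.38 for the median, relative to the GAPDH median -3.86, -2.59, -2.69, -2.84 and -2.76, and relative to the actin control -3.96, -2.69, -2.79, -2.94 and -2.86. Without s_at probe sets FOS alone was left of the 4 (count 1, median -2.55), and without dim probe sets EGR1 dropped out (median -1.53). Averaging the probe sets within a gene gave the same median, since each of the 4 has 1. At 3-fold the count of lower genes was 1 of the 4, 1 of the other immediate early genes (THBS1) and 63 of the 823. The count of other immediate early genes that were higher, 1 as deposited, was 0 at 3-fold, 0 without s_at probe sets and 0 relative to GAPDH, and relative to GAPDH 520 of the 823 genes were lower in place of 212. No paired analysis was possible because each group has 1 array, and for the same reason no sample could be left out.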

Other observations

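The listed heat shock and chaperone genes that were in the table, 4 of 16, were higher, where 74.2% of the named genes were higher. BAG3, a co-chaperone, had log2 intensities of 6.94 and 8.43, a log2 difference of 1.49. The small heat shock proteins HSPB1 and HSPB8 had log2 differences of 1.20 and 1.13 and DNAJB4, a partner of HSP70, had 1.07. With these probe sets BAG3, HSPB1, HSPB8 and DNAJB4 were at 2.57, 2.28, 2.21 and 2.15 relative to the spike-in median. Relative to the GAPDH controls HSPB1, HSPB8 and DNAJB4 were at -0.10, -0.18 and -0.23, and BAG3 was at 0.18. The sign relative to GAPDH depends on the probe set for HSPB8 and DNAJB4. Another probe set of HSPB8 was at 0.32 (and a further one at -0.24) and the other probe set of DNAJB4 at 0.23. The inducible HSP70 genes HSPA1A and HSPA1B and the chaperone HSPH1 were not in the table and are not analysed here.

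Of 20 listed stimuli and receptors that act on immediate early genes, 3 were in the table. EDNRA, a receptor for endothelin, had 4.69 and 7.80, a log2 difference of 3.11. EGF, a growth factor, had 4.77 and 6.26, a log2 difference of 1.49, and CCN1 is given above. The lenti-control values of EDNRA and EGF are not shown to be above background.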
